A study of Mus musculus with 12 samples.

Results

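The 47 genes described here encode the proteins that bring long-chain fatty acids into the mitochondria of heart muscle and oxidize them, that bring pyruvate into mitochondria, and that run the tricarboxylic acid (TCA) cycle. They were chosen by gene symbol from the 53801 genes of the deposited tables, and each of the 47 symbols stood on 1 gene identifier. By role they comprise 4 genes of fatty acid uptake and activation, 4 of carnitine entry and its control, 10 of the beta-oxidation core, 3 for unsaturated fatty acids, 3 of electron transfer from beta-oxidation, 6 of pyruvate entry, and 17 of the TCA cycle. The series compares hearts of C57BL/6N mice that had sham surgery with hearts taken on day 1 or day 7 of acute myocardial infarction (AMI), and each of the 3 groups holds 4 libraries from 4 hearts. AMI was made by ligation of the left anterior descending coronary artery, and the study's methods give 10 to 14 weeks as the age of its male mice at surgery. The labels give no genotype or drug that sets these groups apart, and they do not say which day of sampling applies to sham. Total counts ran from 23204551 to 32166517 per library.

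The adult heart draws most of its ATP from long-chain fatty acids. CD36 and the transport protein of *Slc27a1* help them across the cell membrane, the binding protein of *Fabp3* carries them in the cytosol, and the synthetase of *Acsl1* joins them to coenzyme A. The carnitine shuttle moves the activated fatty acid into mitochondria, and its outer membrane enzyme is held back by malonyl-CoA. Beta-oxidation then shortens the chain in repeated rounds of dehydrogenation, hydration, a further dehydrogenation and thiolytic cleavage. Each round releases acetyl-CoA for the TCA cycle and passes electrons to the respiratory chain. Pyruvate from glycolysis and lactate reaches the same acetyl-CoA pool through the mitochondrial pyruvate carrier and the pyruvate dehydrogenase complex.

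Levels are given as CPM, a gene's counts relative to the library total scaled with edgeR's TMM factors, which compare a gene between hearts, or as the deposited TPM, which allow for gene length. A second scale, called the marker scale, sets each library by 12 cardiomyocyte marker genes in place of TMM. Hearts of a group are always listed in the order of their replicate numbers. A gene is said to have fallen or risen where edgeR's quasi-likelihood test, adjusted over 15306 tested genes, gave a false discovery rate (FDR) below 0.05. Where a gene also passed a fold change (FC) of 2 it is called a differentially expressed gene (DEG). All 47 members passed the filter on low counts. Fewer cells of a type and less RNA per cell cannot be told apart in RNA from a whole heart, which holds many cell types.

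Abundance differed widely among the members. By TPM, *Fabp3* was the most abundant in sham hearts at 7179.9 ± 1186 TPM (SD, n = 4). *Idh2* came next at 1602 ± 149 TPM, followed by *Etfb* at 1316 ± 158 and *Mdh2* at 1311 ± 121. At the other end were *Pdhx* at 77.02 ± 6.78 TPM, *Suclg2* at 96.2 ± 7.27 and *Mlycd* at 98.5 ± 18.8. The fatty acid genes together held 19152 ± 1819 TPM in sham hearts, the TCA cycle genes 10942 ± 576 and the pyruvate entry genes 2469 ± 150.3. As a share of all counts, the 47 members made up 3.70% ± 0.219 in sham, 3.02% ± 0.333 on day 1 and 2.24% ± 0.142 on day 7 (SD, n = 4).

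On day 1 after AMI, 47 of 47 members had fallen against sham, where 19.9% of all tested genes had. Their median log2 FC was -0.55, which becomes 0.03 on the marker scale, and they ranged from -1.06 for *Mlycd* to -0.34 for *Acadvl*. *Mlycd* was the 1 DEG among them, beside 2.98% of all genes that were DEGs in this direction. In 41 of the 47, every day 1 heart was below every sham heart, which held for 17.1% of all genes. The 6 whose hearts overlapped were *Acadvl*, *Decr1*, *Etfb*, *Mpc2*, *Sdhc* and *Sdhd*. No member rose with edgeR, at FDR below 0.05 or at an unadjusted p below 0.05, and 0 rose with DESeq2, while 22% of all genes rose. The largest FDR among the 47 was 0.0256, for *Acadvl*.

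By day 7 the loss was deeper. All 47 members had fallen against the same sham hearts, beside 28.4% of all genes, with a median log2 FC of -1.14 and a range from -1.70 for *Etfb* to -0.70 for *Pdhx*. DEGs numbered 33 of 47, against 5.88% of all genes. They numbered 7 with library sizes alone, 3 on log2(TPM + 1) and 0 on the marker scale, where the members' median was -0.24. In the same settings 318, 111 and 86 of all 15306 genes were DEGs in this direction. All 47 had every day 7 heart below every sham heart, beside 24.7% of all genes. The edgeR test again gave 0 members that rose, 0 at an unadjusted p below 0.05, and DESeq2 gave 0, beside 30.9% of all genes that rose. The largest FDR among the members was 6.67e-05, for *Pdhb*.

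Between day 1 and day 7 the members fell further. Here 43 of 47 fell, beside 22.8% of all genes, with a median log2 FC of -0.54, which becomes -0.22 on the marker scale. *Etfb* and *Acadvl* were the 2 DEGs, against 2.69% of all genes. The 4 that did not pass the test were *Acsl1* (FDR = 0.0665), *Mpc1* (FDR = 0.137), *Pdhb* (FDR = 0.0637) and *Ogdh* (FDR = 0.0749), and their log2 FCs were -0.28, -0.21, -0.28 and -0.23. Day 7 hearts were all below day 1 hearts in 41 of 47, beside 20.9% of all genes, and overlapped for *Acsl1*, *Cpt2*, *Mpc1*, *Pdhb*, *Idh2* and *Ogdh*. No member rose by edgeR, with 0 at an unadjusted p below 0.05 and 0 by DESeq2, beside 24.2% of all genes. On log2(TPM + 1) the difference was above 0 for *Pdhx* (0.12), *Mpc1* (0.03), *Dlat* (0.01) and *Ogdh* (0.00334). The drop from day 1 to day 7 was larger than the drop from sham to day 1 in 22 of 47 members, namely 12 of 24 fatty acid genes, 2 of 6 pyruvate entry genes and 8 of 17 TCA cycle genes. Each pair of comparisons shares a group of hearts, so their values are not independent.

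**Figure D1:**
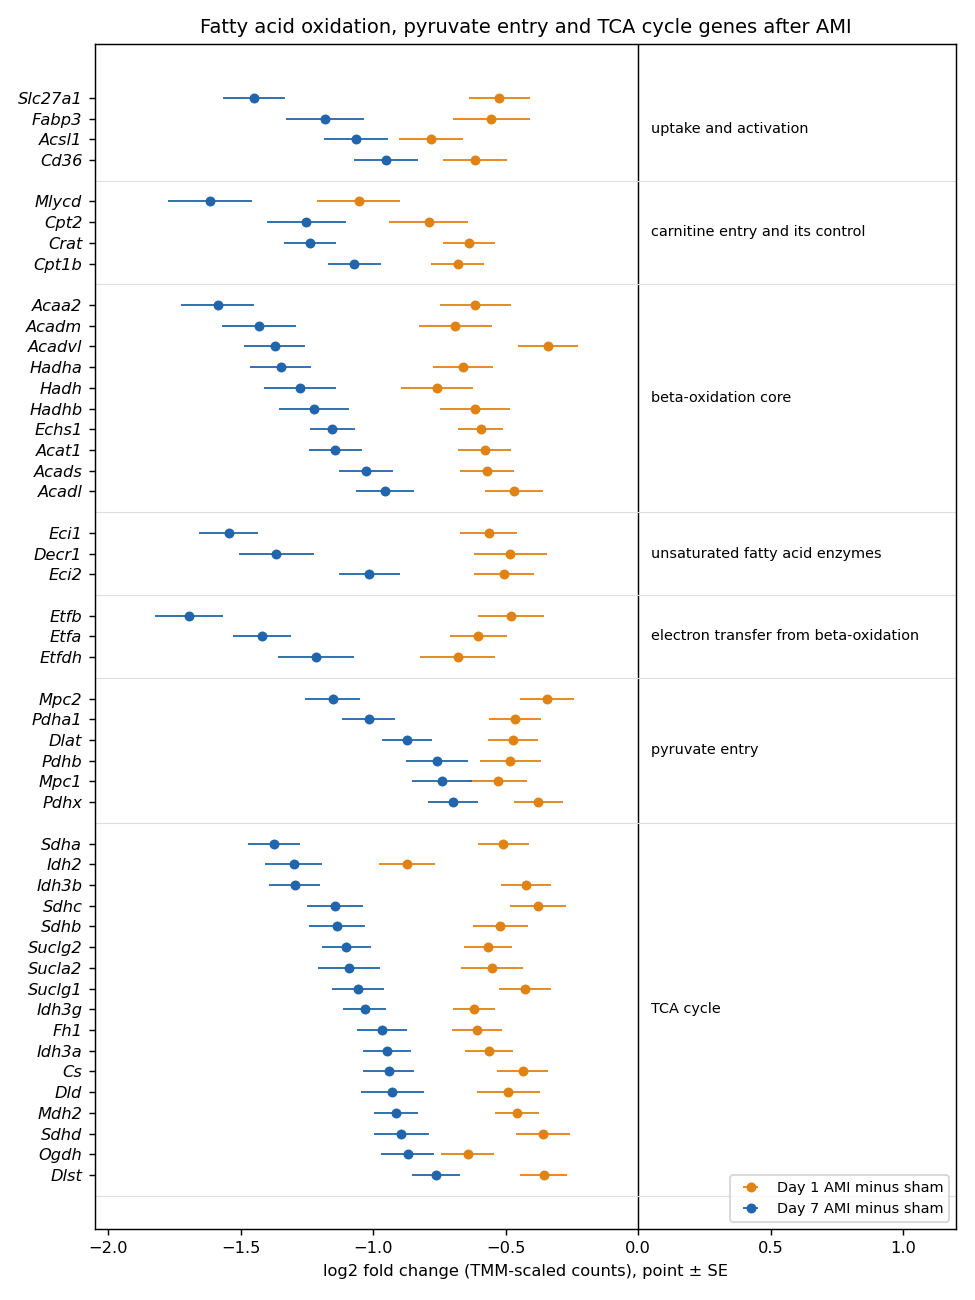
Log2 fold change of each of the 47 members (horizontal axis, log2 scale; point, estimate; bar, SE) for day 1 AMI minus sham (orange) and day 7 AMI minus sham (blue), grouped by role. All points lie left of 0 on this TMM scale; the day 7 points run from -1.70 for Etfb to -0.70 for Pdhx.

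These values are relative to how libraries are scaled. The TMM factors leave the median of all genes near 0, at -0.01 on day 1 and 0.03 on day 7 against sham. Library sizes alone move that median to 0.26 on day 1, 0.43 on day 7 and 0.15 between them, and limma on log2(TPM + 1) moves it to 0.23, 0.44 and 0.18. With library sizes alone, 21, 47 and 39 members fell in the 3 comparisons, beside 1061, 1659 and 2168 of all 15306 genes. On log2(TPM + 1), 15, 42 and 22 members fell, beside 737, 1023 and 1302 of all genes. A change of library scaling moves all genes alike, so the members' distance from the median of all genes is nearly fixed by construction and is no test of the result. It was -0.54, -1.16 and -0.56 with TMM, -0.54, -1.16 and -0.56 with library sizes alone, and -0.464, -0.998 and -0.465 on log2(TPM + 1).

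Fatty acid uptake and activation fell in all 4 genes on both days, and 3 of the 4 were DEGs on day 7, where the median log2 FC was -1.12. On the marker scale 0 of the 4 fell on day 1 by edgeR, with 0 at an unadjusted p below 0.05, and 2 on day 7, where the median was -0.23. *Slc27a1* (ENSMUSG00000031808, chr8:71568882-71587302, plus strand, build GRCm38) encodes a fatty acid transport protein of the membrane. It measured 234, 268, 255 and 288 CPM in the sham hearts, 175, 164, 183 and 204 CPM on day 1, and 85.5, 82.4, 119 and 95.7 CPM on day 7. The 3 groups did not overlap, and the fall was log2 FC = -0.52 ± 0.11 (SE), FDR = 0.00256 on day 1 and log2 FC = -1.45 ± 0.12 (SE), FDR = 2.65e-07 on day 7. Most of it came after day 1 (log2 FC = -0.92 ± 0.12 (SE), FDR = 2.69e-05). *Cd36* (ENSMUSG00000002944, chr5:17781690-17888801, minus strand) encodes the main fatty acid translocase of the cardiomyocyte membrane and changed least of the 4 by day 7. Its hearts had 2021, 1468, 1528 and 1607 CPM in the sham hearts, 932, 1145, 986 and 1256 CPM on day 1, and 798, 872, 931 and 824 CPM on day 7. Sham 1 was the highest of the sham hearts, and day 1 and day 7 lay apart by a narrow margin. *Cd36* fell on day 1 (log2 FC = -0.62 ± 0.12 (SE), FDR = 0.00116) and on day 7 (log2 FC = -0.95 ± 0.12 (SE), FDR = 1.27e-05), and the step between them had an FDR of 0.0328. Without any 1 of Day 1 AMI 2, Day 1 AMI 4, Day 7 AMI 1, Day 7 AMI 2 and Day 7 AMI 4 that step no longer passed the test.

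*Fabp3* and *Acsl1* completed the uptake genes. The cytosolic carrier gene *Fabp3* (ENSMUSG00000028773, chr4:130308595-130315463, plus strand) measured 3129, 3295, 4104 and 4021 CPM in the sham hearts, 2346, 2391, 2600.3 and 2573 CPM on day 1, and 2006, 1197, 1785 and 1424 CPM on day 7. Every group was apart from the others, with a wide day 7 spread in which Day 7 AMI 1 was highest. It fell on day 1 (log2 FC = -0.55 ± 0.15 (SE), FDR = 0.008) and on day 7 (log2 FC = -1.18 ± 0.15 (SE), FDR = 1.14e-05). Of its 75-base stretches, 24.3% also occur in the pseudogene Fabp3-ps1, which had between 9 and 56 counts per library against at least 30976 for *Fabp3*. *Acsl1* (ENSMUSG00000018796, chr8:46471037-46536051, plus strand), the main long-chain acyl-CoA synthetase of the heart, had 1357, 986, 1247 and 1185 CPM in the sham hearts, 654, 597, 701 and 828 CPM on day 1, and 508, 559, 639 and 577 CPM on day 7. Sham hearts were above all AMI hearts, while day 1 and day 7 overlapped. Most of the fall was present on day 1 (log2 FC = -0.78 ± 0.12 (SE), FDR = 0.000241), and day 7 stood at log2 FC = -1.06 ± 0.12 (SE), FDR = 4.94e-06.

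All 4 genes of carnitine entry and its control fell on both days, and all 4 were DEGs on day 7, with medians of -0.74 and -1.25. On the marker scale the medians were -0.16 and -0.35, and 1 and 3 of the 4 fell. *Mlycd* (ENSMUSG00000074064, chr8:119394878-119411102, plus strand) encodes malonyl-CoA decarboxylase, which removes the inhibitor of carnitine entry. Its values were 141, 153, 199 and 184 CPM in the sham hearts, 73.6, 71.3, 75.7 and 105 CPM on day 1, and 51.3, 43.9, 68.7 and 56.9 CPM on day 7. Day 1 AMI 4 stood well above the other day 1 hearts, yet below every sham heart. *Mlycd* had the largest change of all members on day 1 (log2 FC = -1.06 ± 0.16 (SE), FDR = 0.00018), a level 2.08-fold lower, and on day 7 it was 3.06-fold lower (log2 FC = -1.62 ± 0.16 (SE), FDR = 1.39e-06). On day 1 its fold change sat close to 2, and without Sham 3 or without Day 1 AMI 2 no member was a DEG.

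The carnitine palmitoyltransferases moved with it. *Cpt1b* (ENSMUSG00000078937, chr15:89416405-89425863, minus strand), the muscle form of the outer membrane enzyme and the controlling step of the shuttle, measured 790.4, 702, 767 and 858 CPM in the sham hearts, 458, 448, 496 and 543 CPM on day 1, and 346, 336, 429.8 and 372 CPM on day 7. The groups were apart, with the larger step by day 1 (log2 FC = -0.68 ± 0.10 (SE), FDR = 0.000166; on day 7 log2 FC = -1.07 ± 0.10 (SE), FDR = 9.36e-07). *Cpt1b* shares 81.4% of its exonic bases, on the same strand, with the gene model Gm44502, which held at most 1.16% of the count of *Cpt1b* in any library. *Cpt2* (ENSMUSG00000028607, chr4:107903981-107923610, minus strand), the inner membrane enzyme that returns the acyl group to coenzyme A, had 387, 284, 368 and 393 CPM in the sham hearts, 188, 164, 211 and 264 CPM on day 1, and 127, 155, 176 and 143 CPM on day 7. Day 1 and day 7 overlapped through Day 1 AMI 2 and Day 7 AMI 3. *Cpt2* fell on day 1 (log2 FC = -0.79 ± 0.15 (SE), FDR = 0.000856) and on day 7 (log2 FC = -1.25 ± 0.15 (SE), FDR = 7.15e-06), and its further fall (log2 FC = -0.46 ± 0.15 (SE), FDR = 0.019) no longer passed the test without Day 1 AMI 4 or without Day 7 AMI 1. *Crat*, the carnitine acetyltransferase that buffers acetyl-CoA, fell by 0.64 and by 1.24 on the log2 scale.

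The 10 genes of the beta-oxidation core all fell on day 1 and on day 7, with medians of -0.60 and -1.25, and 9 of them were DEGs on day 7. On the marker scale the medians were -0.03 and -0.35, with 0 of 10 lower on day 1 by edgeR and 8 of 10 on day 7. On day 1, 1 of the 10 had an unadjusted p below 0.05 in either direction. The smallest FDR of the 10 on that day and scale was for *Acadvl*, which stood higher (log2 FC = 0.23 ± 0.10 (SE), FDR = 0.0603). The thiolase gene *Acaa2* (ENSMUSG00000036880, chr18:74779197-74806208, plus strand), whose enzyme makes the final cleavage of a round, had 1046, 864, 1165 and 1337 CPM in the sham hearts, 658, 667, 728 and 828 CPM on day 1, and 323, 330.2, 425 and 389 CPM on day 7. The groups did not overlap, although sham hearts varied widely. *Acaa2* was 3.01-fold lower on day 7 (log2 FC = -1.59 ± 0.14 (SE), FDR = 4.61e-07) after a smaller day 1 fall (log2 FC = -0.61 ± 0.13 (SE), FDR = 0.00252). *Acadl* (ENSMUSG00000026003, chr1:66830839-66863277, minus strand), which encodes long-chain acyl-CoA dehydrogenase, changed least in the core by day 7. Its hearts showed 1241, 973, 1200.1 and 1324 CPM in the sham hearts, 798, 813, 839.7 and 971 CPM on day 1, and 555, 623, 683 and 583 CPM on day 7, and Sham 2 lay only just above Day 1 AMI 4. The fall was log2 FC = -0.47 ± 0.11 (SE), FDR = 0.00349 on day 1 and log2 FC = -0.95 ± 0.11 (SE), FDR = 4.83e-06 on day 7.

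*Acadvl* (ENSMUSG00000018574, chr11:70010183-70015411, minus strand) encodes the very long-chain acyl-CoA dehydrogenase of the inner membrane. Its levels were 1237, 1272, 1365 and 1400.3 CPM in the sham hearts, 941, 953, 994 and 1279 CPM on day 1, and 497, 444, 581 and 516 CPM on day 7. Day 1 AMI 4 overlapped the sham hearts, while all day 7 hearts were far below. The day 1 fall was the smallest of all members (log2 FC = -0.34 ± 0.11 (SE), FDR = 0.0256), and it no longer passed the test without any 1 of Sham 3, Sham 4, Day 1 AMI 1, Day 1 AMI 2 and Day 1 AMI 3. After day 1 *Acadvl* was 2.04-fold lower (log2 FC = -1.03 ± 0.11 (SE), FDR = 8.91e-06), and against sham it ended at log2 FC = -1.37 ± 0.11 (SE), FDR = 3.32e-07. Of its exonic bases, 42.9% lie opposite exons of *Dvl2*, whose counts were at most 2.47% of those of *Acadvl*.

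On day 7 the other core genes lay between *Acaa2* and *Acadl*. Their log2 FCs were -1.43 for the medium-chain dehydrogenase gene *Acadm*, -1.03 for the short-chain *Acads*, -1.15 for the hydratase *Echs1*, -1.28 for the hydroxyacyl-CoA dehydrogenase *Hadh* and -1.14 for the thiolase *Acat1*. *Hadha* (ENSMUSG00000025745, chr5:30118304-30155162, minus strand) and *Hadhb* (ENSMUSG00000059447, chr5:30155248-30184593, plus strand) encode both subunits of the mitochondrial trifunctional protein. They run head to head from starts with 85 bases between them, and they stood at -0.66 and -0.62 on day 1 and at -1.35 and -1.22 on day 7. *Acadm* fell from 1286 ± 155 CPM (SD, n = 4) in sham hearts to 797 ± 161 and 477 ± 51.7.

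The enzymes that handle double bonds in unsaturated fatty acids all fell, 3 of 3 on each day, with medians of -0.51 and -1.37. All 3 were DEGs on day 7. On the marker scale the medians were 0.07 on day 1 and -0.46 on day 7, where 2 of 3 were lower. *Eci1* (ENSMUSG00000024132, chr17:24426641-24439348, plus strand), an enoyl-CoA isomerase, had 306, 302, 334 and 347 CPM in the sham hearts, 201, 190.2, 213 and 268 CPM on day 1, and 109, 99.8, 126 and 108 CPM on day 7. The 3 groups did not overlap. Its drop after day 1 (log2 FC = -0.98 ± 0.11 (SE), FDR = 1.03e-05) was among the largest 3 of all members, and against sham it reached log2 FC = -1.55 ± 0.11 (SE), FDR = 9.97e-08 from -0.57 on day 1. *Eci2* (ENSMUSG00000021417, chr13:34977748-35027096, minus strand), the second isomerase, measured 194, 155, 185 and 199.6 CPM in the sham hearts, 128, 116, 118 and 154 CPM on day 1, and 77.7, 94.97, 103 and 88.02 CPM on day 7, with Sham 2 just above Day 1 AMI 4. Its change on day 7 was the smallest of the trio (log2 FC = -1.01 ± 0.11 (SE), FDR = 4.4e-06). *Decr1*, which encodes a dienoyl-CoA reductase, stood at -0.48 and -1.37.

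Electron transfer from beta-oxidation showed the deepest median on day 7, -1.42, with 3 of 3 genes as DEGs. On the marker scale the median was -0.04 on day 1, with 0 of 3 lower by edgeR and 0 at an unadjusted p below 0.05, and -0.53 on day 7, with 3 of 3 lower. *Etfb* (ENSMUSG00000004610, chr7:43444083-43457800, plus strand) encodes the beta subunit of the electron transfer flavoprotein, which collects electrons from the acyl-CoA dehydrogenases. It had 516, 649, 628 and 634 CPM in the sham hearts, 402, 376, 436 and 525 CPM on day 1, and 212, 161, 209 and 166 CPM on day 7. Sham 1 was the lowest sham heart and overlapped Day 1 AMI 4, and every day 7 heart was below every day 1 heart. *Etfb* had the largest change of all members on day 7, 3.24-fold lower (log2 FC = -1.70 ± 0.13 (SE), FDR = 1.56e-07), and also after day 1 (log2 FC = -1.21 ± 0.13 (SE), FDR = 5.92e-06), against log2 FC = -0.48 ± 0.13 (SE), FDR = 0.00738 on day 1. The gene model Gm45233 covers 53.0% of its exonic bases on the same strand and had between 1 and 8 counts. *Etfa*, the alpha subunit gene, stood at -0.60 and -1.42. *Etfdh* (ENSMUSG00000027809, chr3:79603788-79629500, minus strand), whose enzyme passes the electrons on to ubiquinone, measured 941, 648, 729.6 and 812 CPM in the sham hearts, 423, 423, 474 and 632 CPM on day 1, and 316, 315, 384 and 333 CPM on day 7. Day 1 AMI 4 came close to Sham 2 without overlap. The fall was log2 FC = -0.68 ± 0.14 (SE), FDR = 0.00181 on day 1 and log2 FC = -1.22 ± 0.14 (SE), FDR = 6.5e-06 on day 7.

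**Figure D2:**
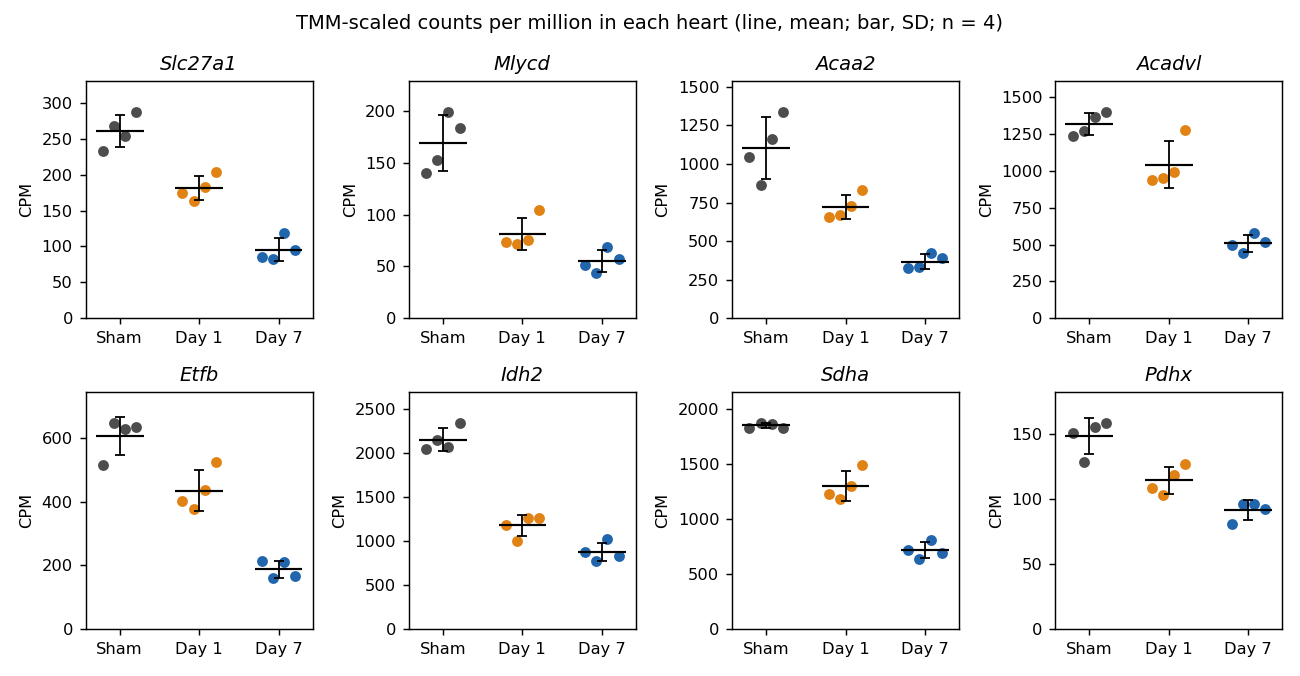
TMM-scaled CPM (vertical axis, from 0) of 8 members in each heart (points; line, mean; bar, SD; n = 4) by group. Acadvl and Etfb have a day 1 heart at or above a sham heart, and all 8 genes have every day 7 heart below every sham heart.

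Pyruvate entry changed least. All 6 genes fell on day 1 and on day 7, but the medians were -0.47 and -0.82, which become 0.11 and 0.09 on the marker scale, and 2 of 6 (*Mpc2* and *Pdha1*) were DEGs on day 7. *Mpc2* (ENSMUSG00000026568, chr1:165460637-165481214, plus strand), a subunit of the mitochondrial pyruvate carrier, had 283, 298, 327 and 324 CPM in the sham hearts, 227, 216, 231 and 297 CPM on day 1, and 135, 132, 153 and 133 CPM on day 7. Day 1 AMI 4 lay among the sham hearts. The day 1 change was small (log2 FC = -0.34 ± 0.10 (SE), FDR = 0.0146) and no longer passed the test without Day 1 AMI 2, and the day 7 fall was log2 FC = -1.15 ± 0.10 (SE), FDR = 6.09e-07. Its partner in the carrier, *Mpc1*, stood at -0.53 and -0.74. *Pdhx* (ENSMUSG00000010914, chr2:103021075-103073513, minus strand), which anchors the dihydrolipoyl dehydrogenase in the pyruvate dehydrogenase complex, had 151, 129, 156 and 159 CPM in the sham hearts, 109, 103, 119 and 127 CPM on day 1, and 80.6, 96.4, 96.7 and 92.7 CPM on day 7. The groups were apart in CPM, and the fall of log2 FC = -0.70 ± 0.09 (SE), FDR = 2.15e-05 on day 7 was the smallest of the 47. In the deposited TPM *Pdhx* was not lower on day 7, at 77.02 ± 6.78 in sham hearts, 74.5 ± 6.59 on day 1 and 81.2 ± 8.44 on day 7. On day 7 against sham, the log2 difference in TPM lay above that in CPM by a median of 0.54 over all compared genes (SD 0.13). The members furthest from this median offset were *Sdhc* (0.24 beyond it), *Pdhx* (0.23), *Fh1* (-0.20), *Dlat* (0.20), the acetyltransferase gene of the complex, and *Suclg2* (0.18). *Fh1* still fell by less in TPM (-0.62) than in CPM (-0.97). The catalytic core genes *Pdha1* and *Pdhb* stood at -1.02 and -0.76 on day 7, and *Dlat* at -0.87.

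The TCA cycle fell in 17 of 17 genes on both days, with a day 1 median of -0.51 that becomes 0.06 on the marker scale, a day 7 median of -1.03, and 9 DEGs on day 7. *Idh2* (ENSMUSG00000030541, chr7:80094846-80115392, minus strand), the mitochondrial NADP-dependent isocitrate dehydrogenase, had the largest day 1 change of the cycle. It measured 2044, 2154, 2076 and 2347 CPM in the sham hearts, 1180.2, 1002, 1266 and 1262 CPM on day 1, and 876, 775, 1023 and 829 CPM on day 7. Sham hearts were far above the rest, and Day 1 AMI 2 overlapped Day 7 AMI 3. The fall was log2 FC = -0.87 ± 0.11 (SE), FDR = 5.41e-05 on day 1, log2 FC = -1.30 ± 0.11 (SE), FDR = 3.12e-07 on day 7 and log2 FC = -0.43 ± 0.11 (SE), FDR = 0.0045 between them. *Sdha* (ENSMUSG00000021577, chr13:74322254-74350280, minus strand), the flavoprotein of succinate dehydrogenase, which is also complex II of the respiratory chain, had 1829, 1875, 1867 and 1827 CPM in the sham hearts, 1225, 1178, 1297 and 1494 CPM on day 1, and 716, 639, 812 and 688 CPM on day 7. The sham hearts lay close together and the groups did not overlap. *Sdha* had the largest day 7 change of the cycle (log2 FC = -1.37 ± 0.10 (SE), FDR = 9.43e-08), after log2 FC = -0.51 ± 0.10 (SE), FDR = 0.000935 on day 1. *Dlst* (ENSMUSG00000004789, chr12:85110833-85134845, plus strand), the succinyltransferase of the oxoglutarate dehydrogenase complex, had the smallest. Its hearts showed 787, 689.9, 818 and 876 CPM in the sham hearts, 623, 567, 627 and 658 CPM on day 1, and 428, 483, 491 and 466 CPM on day 7, with day 1 and day 7 each apart from sham, and it fell on day 7 (log2 FC = -0.76 ± 0.09 (SE), FDR = 6.28e-06).

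Within the cycle, subunits of one enzyme did not always move by the same amount. The other succinate dehydrogenase genes stood at -1.14 (*Sdhb*), -1.14 (*Sdhc*) and -0.89 (*Sdhd*) on day 7. Of the NAD-dependent isocitrate dehydrogenase, *Idh3b* stood at -1.30, *Idh3g* at -1.03 and *Idh3a* at -0.95. Differences between subunits were not tested. Citrate synthase (*Cs*) stood at -0.94, fumarase (*Fh1*) at -0.97, *Ogdh* at -0.87, *Dld* at -0.93 and *Suclg1* at -1.06. *Mdh2*, the mitochondrial malate dehydrogenase, had 1347, 1314, 1449 and 1560.1 CPM in the sham hearts, 989.9, 990.0, 1061 and 1084 CPM on day 1, and 718, 735, 812 and 745 CPM on day 7. Its groups were apart, with log2 FC = -0.46 ± 0.08 (SE), FDR = 0.000682 on day 1 and log2 FC = -0.91 ± 0.08 (SE), FDR = 7.33e-07 on day 7.

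Hearts differed within groups, and the members tended to move together from heart to heart. In the day 1 group, Day 1 AMI 4 had the highest CPM for 41 of 47 members and Day 1 AMI 2 the lowest for 38. On day 7, Day 7 AMI 3 was highest for 43 and Day 7 AMI 1 lowest for 28. Among the shams, Sham 4 was highest for 28 and Sham 2 lowest for 33. The 12 cardiomyocyte markers ranked the hearts in nearly the same way. Their mean log2 CPM was highest in Day 1 AMI 4 (11.896), Day 7 AMI 3 (11.666) and Sham 4 (12.513). It was lowest in Day 1 AMI 2 (11.676), Day 7 AMI 2 (11.429) and Sham 2 (12.205). How many of all genes ranked the hearts this way was not counted. Genes of the mitochondrial genome accounted for 21.4% ± 4.29 of all counts in sham, 14.8% ± 1.78 on day 1 and 16.1% ± 2.64 on day 7 (SD, n = 4). With these genes left out of the library sizes and TMM factors, the members lower numbered 47, 47 and 43 in the 3 comparisons, as with them.

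Cell type markers moved with the groups too. The 12 cardiomyocyte markers, of which *Myh6* was the most abundant in each heart, were all detected in each heart. Their summed level was between 96319 and 110460 CPM in sham hearts, 58571 and 72790 on day 1, and 50728 and 59235 on day 7. Of the 12, 10 fell on day 1 and 10 on day 7, with medians of -0.65 and -1.07. The 10 leukocyte markers, led by *Lyz2*, were all detected and summed to between 182 and 292 CPM in sham hearts, 475 and 709 on day 1, and 674 and 1024.5 on day 7. The 8 fibroblast markers summed to between 1093 and 1335 CPM in sham hearts, 1746 and 2370 on day 1, and 8207 and 16464 on day 7, with *Dcn*, *Col3a1* or *Col1a1* the most abundant. The 8 endothelial markers, led by *Kdr* or *Cdh5*, summed to between 901 and 1046 CPM in sham hearts, 792 and 837 on day 1, and 1225 and 1370 on day 7.

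The 6 erythroid markers, led by *Hbb-bs*, summed to 4462 CPM in Sham 2, the sham heart that was lowest for most members, and to between 491 and 1181 CPM in the other sham hearts. In AMI hearts they lay between 421 and 649 CPM on day 1 and between 241 and 970.05 on day 7. Of the 6, 4 were DEGs that fell on day 1 and 4 on day 7, with medians of -1.75 and -1.63, and on the marker scale 1 and 0 fell by edgeR, with 2 and 0 at an unadjusted p below 0.05. These calls and medians include Sham 2 and were not computed again without it. The sums of Sham 3 and Sham 4 lie within the range of the day 1 and of the day 7 hearts. The 8 adipocyte markers, led by *Cidea*, summed to 29.6 ± 4.14 CPM in sham hearts, 27.5 ± 1.83 on day 1 and 21.6 ± 2.11 on day 7 (SD, n = 4), and between 0 and 4 of the 8 had a count of 0 in a heart. The 6 atrial markers, led by *Nppa*, summed to between 96.6 and 876 CPM in sham hearts, 486 and 1268 on day 1, and 1222 and 1866 on day 7, so every day 7 heart was above every sham heart. Of the 6 atrial markers, 1 fell and 1 rose on day 1, and 1 fell and 2 rose on day 7. Their median log2 FC was 0.20 on day 1 and -0.52 on day 7, the latter opposite in sign to the change of the sum. On day 7 they ranged from -5.28 for *Bmp10* to 2.73 for *Nppa*. The part that these cell types have in the fall of the members was not tested.

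**Figure D3:**
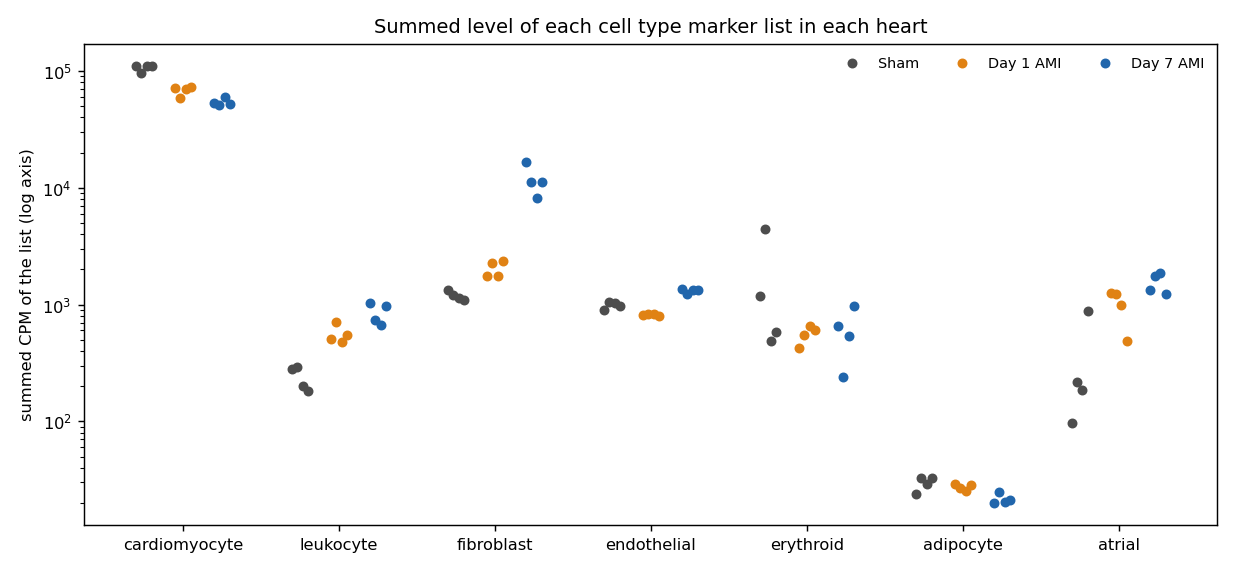
Summed TMM-scaled CPM of each cell type marker list (vertical axis, log scale) in each of the 12 hearts, colored by group. Cardiomyocyte sums are lower in both AMI groups (58571 to 72790 CPM on day 1, 50728 to 59235 on day 7) than in sham (96319 to 110460), and fibroblast sums are highest on day 7.

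To ask how the members stood relative to other cardiomyocyte transcripts in the same heart, the libraries were also scaled to the 12 cardiomyocyte markers. These markers are themselves regulated after infarction, so the scale is a second reference and not a count of cells. On it the median of all genes moved to 0.56 on day 1, 0.92 on day 7 and 0.34 between them. Only *Mlycd* (log2 FC = -0.48 ± 0.13 (SE), FDR = 0.00551) and *Idh2* (log2 FC = -0.31 ± 0.09 (SE), FDR = 0.00839) fell on day 1, 2 of 47, beside 2.5% of all genes. *Dlst* (log2 FC = 0.22 ± 0.08 (SE), FDR = 0.0301) rose, 1 of 47, beside 65.1% of all genes. The rise of *Dlst* no longer passed the test without *Myh6* and *Atp2a2* among the markers. Leaving out Sham 2 gave 6 members that rose, leaving out any 1 of Sham 1, Sham 3, Day 1 AMI 2, Day 1 AMI 3 and Day 1 AMI 4 gave 0, and without Day 1 AMI 4 the members that fell numbered 5. The members' median was 0.03 on day 1, so on the TMM scale they had fallen about as far as the cardiomyocyte markers. The scale moves all genes alike, and the part of cardiomyocytes in this fall was not tested.

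On day 7 more members were lower on the marker scale. Here 25 of 47 fell against sham, beside 2.63% of all genes, and the edgeR test called 0 higher, with 79.6% of all genes higher. At an unadjusted p below 0.05, 26 members differed in either direction. The 25 were 18 of the 24 fatty acid genes (median -0.35), 6 of the 17 TCA cycle genes (median -0.14) and 1 of the 6 pyruvate entry genes (*Mpc2*; median 0.09, a sign opposite to the TMM scale). *Etfb* (log2 FC = -0.81 ± 0.13 (SE), FDR = 2.65e-05) and *Mlycd* (log2 FC = -0.72 ± 0.14 (SE), FDR = 0.000153) fell most, and *Cd36* (log2 FC = -0.05 ± 0.13 (SE), FDR = 0.693) and *Acadl* (log2 FC = -0.05 ± 0.09 (SE), FDR = 0.605) did not pass the test. Between day 1 and day 7, 19 of 47 fell, beside 5.91% of all genes, and 0 rose with edgeR, with 42.8% of all genes higher. In either direction, 23 members had an unadjusted p below 0.05 in that comparison. The 12 markers were not alike either, since on the marker scale 5 of them fell and 3 rose on day 7, with a median of -0.17 and a lowest value of -0.48 (*Myl2*), and *Actc1* stood at -0.17 and *Myh6* at -1.20 on the TMM scale on day 7.

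A comparison within each heart does not depend on scaling. The mean log2 CPM of the 24 fatty acid genes minus that of the 6 pyruvate entry genes was 0.66 ± 0.02 in sham hearts (SD, n = 4), 0.49 ± 0.08 on day 1 and 0.26 ± 0.11 on day 7. Sham hearts ran from 0.65 to 0.68, day 1 hearts from 0.44 to 0.61 and day 7 hearts from 0.12 to 0.36, so the 3 groups did not overlap. Against the 17 TCA cycle genes the fatty acid genes stood at -0.20 ± 0.05 in sham hearts, -0.30 ± 0.07 on day 1 and -0.43 ± 0.06 on day 7, and here sham and day 1 hearts overlapped. The TCA cycle genes minus the pyruvate entry genes gave 0.86 ± 0.04, 0.79 ± 0.02 and 0.69 ± 0.06. By day 7 the mean of the fatty acid genes had thus dropped more than that of both other groups within the same hearts. Relative to the mean of the 12 cardiomyocyte markers, the fatty acid genes stood at -2.95 ± 0.02 in sham hearts, -3.00 ± 0.14 on day 1 and -3.33 ± 0.06 on day 7, the TCA cycle genes at -2.75 ± 0.07, -2.70 ± 0.07 and -2.90 ± 0.06, and the pyruvate entry genes at -3.62 ± 0.04, -3.49 ± 0.07 and -3.59 ± 0.12. Every day 7 heart was below every sham heart for the fatty acid and the TCA cycle genes, and for pyruvate entry day 7 hearts overlapped both other groups while every day 1 heart was above every sham heart.

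**Figure D4:**
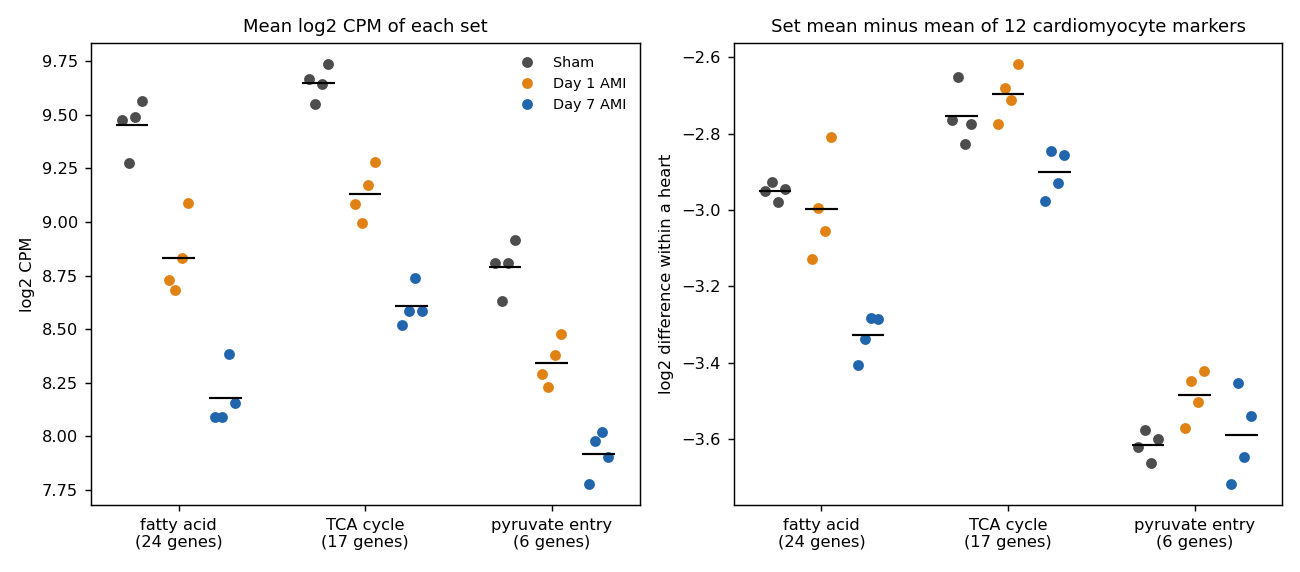
Left, mean log2 CPM of the fatty acid, TCA cycle and pyruvate entry genes in each heart (points; line, group mean; log2 scale). Right, the same means minus the mean of 12 cardiomyocyte markers in the same heart (log2 difference), where the fatty acid genes of day 7 hearts are below all sham and day 1 hearts, and the pyruvate entry genes of day 1 hearts are above all sham hearts while day 7 hearts overlap both groups.

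Several steps of these pathways have a second gene for a related protein, and 6 such pairs were compared as log2 ratios within each heart. The exact two-sided permutation test of 4 hearts against 4 cannot go below p = 0.0286, and after adjustment over 18 tests the smallest value was 0.0735, so 0 of 18 passed 0.05 and 7 of 18 had an unadjusted p of 0.0286. *Fabp5*, the epidermal form of the fatty acid binding protein, gained on *Fabp3*. The *Fabp5* to *Fabp3* ratio was -6.77 ± 0.10 in log2 (SD, n = 4) in sham hearts, -6.46 ± 0.13 on day 1 and -4.48 ± 0.21 on day 7, and all 3 groups were apart (difference of day 7 from sham 2.29, exact permutation p = 0.0286). *Fabp5* itself measured 26.3, 32.1, 39.5 and 35.7 CPM in the sham hearts, 28.1, 25.4, 32.5 and 26.6 CPM on day 1, and 84.4, 61.8, 66.997 and 69.3 CPM on day 7. Sham and day 1 hearts overlapped and day 7 hearts were all higher. It did not pass the test on day 1 (log2 FC = -0.25 ± 0.13 (SE), FDR = 0.138) and rose on day 7 (log2 FC = 1.08 ± 0.13 (SE), FDR = 7.15e-06).

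The synthetase *Acsl4*, which prefers arachidonic acid, gained on *Acsl1* already on day 1. *Acsl4* measured 17.3, 15.2, 16.4 and 14.8 CPM in the sham hearts, 23.4, 27.1, 22.05 and 21.4 CPM on day 1, and 19.7, 25.1, 18.3 and 21.6 CPM on day 7, with every AMI heart above every sham heart. The ratio was -6.22 ± 0.14 in sham hearts, -4.88 ± 0.34 on day 1 and -4.75 ± 0.27 on day 7. Both AMI groups were apart from sham, by 1.34 and 1.46, each at an exact permutation p of 0.0286, and they overlapped each other (0.12, exact permutation p = 0.629). *Cpt1a*, the liver form of the outer membrane palmitoyltransferase, against *Cpt1b* gave -3.24 ± 0.33 in sham hearts, -3.06 ± 0.18 on day 1 and -2.36 ± 0.12 on day 7. Day 7 hearts were all above the others, by 0.89 over sham (exact permutation p = 0.0286), while day 1 and sham hearts overlapped (0.18, exact permutation p = 0.343). *Cpt1a* measured 73.5, 57.05, 100.1 and 108 CPM in the sham hearts, 60.6, 59.9, 54.4 and 56.98 CPM on day 1, and 68.1, 58.3, 90.02 and 74.996 CPM on day 7. On the CPM scale *Cpt1a* fell on day 1 (log2 FC = -0.54 ± 0.17 (SE), FDR = 0.0205) and did not pass the test on day 7 (log2 FC = -0.22 ± 0.17 (SE), FDR = 0.295), while *Cpt1b* was lower on both days. The *Cpt1a* fall on day 1 no longer passed the test without any 1 of Sham 3, Sham 4 and Day 1 AMI 3.

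In the remaining pairs the groups overlapped in each comparison, for *Idh1* to *Idh2* on day 7 through Day 7 AMI 1 alone, and the smallest exact permutation p was 0.143. *Suclg2* and *Sucla2* encode the GTP-forming and ATP-forming beta subunits of succinyl-CoA ligase, and their ratio was -1.70 ± 0.14 in sham hearts, -1.71 ± 0.12 on day 1 and -1.71 ± 0.14 on day 7. Both fell together, *Suclg2* (ENSMUSG00000061838, chr6:95473009-95718800, minus strand) with 231, 189, 199 and 214 CPM in the sham hearts, 139, 127, 149 and 147 CPM on day 1, and 94.1, 91.3, 111 and 91.5 CPM on day 7, and *Sucla2* (ENSMUSG00000022110, chr14:73525319-73596142, plus strand) with 721, 543, 689 and 763 CPM in the sham hearts, 434, 429, 454 and 535 CPM on day 1, and 277, 337, 351 and 308 CPM on day 7. The groups were apart for both genes, and on day 7 they stood at -1.10 and -1.09. The cytosolic malate dehydrogenase *Mdh1* (2570, 2310.2, 2257 and 2543 CPM in the sham hearts, 1599, 1495, 1638 and 1916 CPM on day 1, and 1195, 1304, 1407 and 1252 CPM on day 7) kept a ratio to *Mdh2* of 0.77 ± 0.13, 0.68 ± 0.10 and 0.78 ± 0.04. *Idh1*, the cytosolic isocitrate dehydrogenase, against *Idh2* gave -5.12 ± 0.25, -4.84 ± 0.18 and -5.16 ± 1.79. The wide day 7 spread comes from 1 heart, since *Idh1* measured 3.76, 46.4, 45.7 and 42.96 CPM in the 4 day 7 hearts and 68.3, 48.6, 60.1 and 73.3 CPM in the sham hearts. The other 3 day 7 hearts had a ratio of -4.48 to -4.06, above every sham and every day 1 heart. Without Day 7 AMI 1 the day 7 ratio stood 0.85 above sham, against -0.04 with it, for Idh1 against Idh2, day 7 AMI against sham. With that heart left out of the fit, *Idh1* passed the test against sham on both days.

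**Figure D5:**
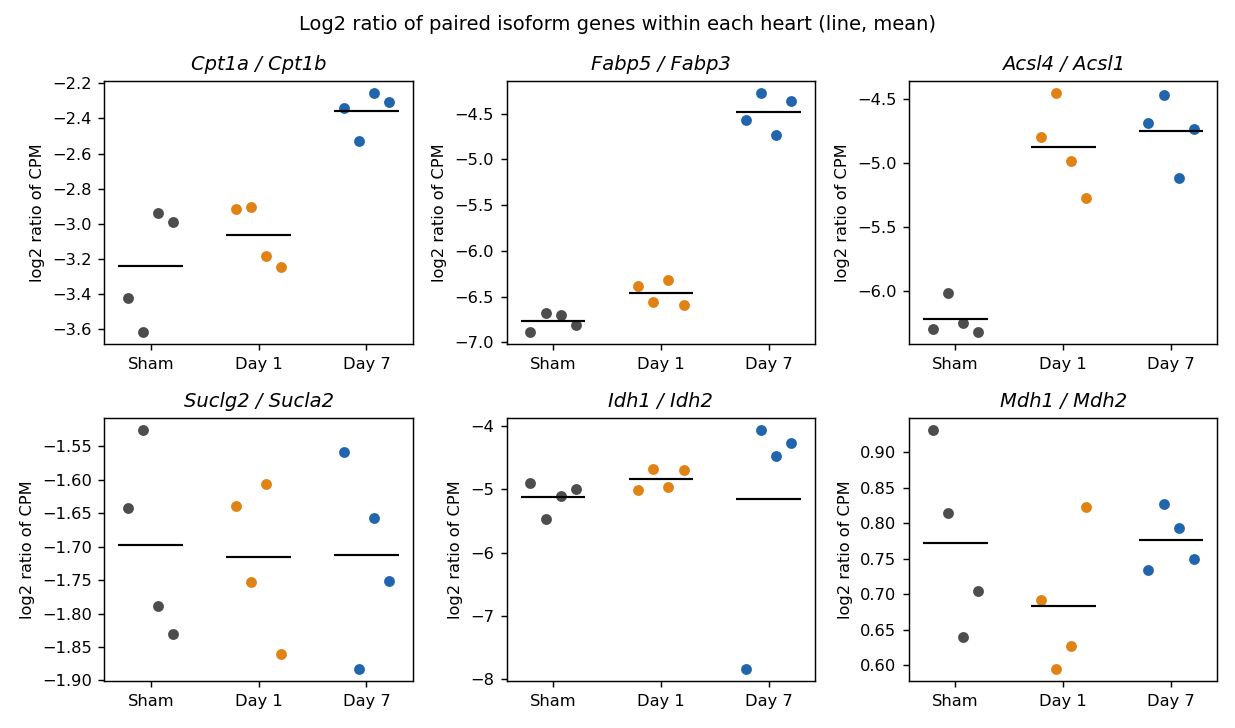
Log2 ratio of CPM of 6 gene pairs within each heart (vertical axis, log2; points, hearts; line, group mean; n = 4). Fabp5 to Fabp3 is highest on day 7 (-4.48), Acsl4 to Acsl1 is higher in both AMI groups than in sham, and 1 day 7 heart is far below the others for Idh1 to Idh2.

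Beyond the 47 members, 63 further genes of fatty acid, pyruvate and TCA metabolism were listed, and 62 were tested. On day 1, 35 fell and 7 rose, on day 7, 43 fell and 9 rose, and between them 26 fell and 8 rose. Of all tested genes 19.9% fell and 22% rose on day 1, 28.4% and 30.9% on day 7, and 22.8% and 24.2% between them. On the marker scale the counts were 10 lower and 25 higher, 14 and 29, and 9 and 14. There 2.5% of all genes were lower and 65.1% higher on day 1, 2.63% and 79.6% on day 7, and 5.91% and 42.8% between them. The median of the 62 turned from -0.41 to 0.16 on day 1 and from -0.67 to 0.23 on day 7. On the marker scale that of all genes was 0.56 on day 1 and 0.92 on day 7. Other genes for enzymes of mitochondrial beta-oxidation and of acyl-CoA came nearest to the members. On day 7, 12 of these 13 fell and 1 rose (*Acot9*, 0.39), with a median of -1.15, which stayed below 0 in each scaling. On the marker scale 6 fell and 2 rose. Among them the dienoyl-CoA isomerase *Ech1* went from 1499.6 ± 73.9 CPM in sham hearts to 921 ± 61.9 on day 1 and 412 ± 79.04 on day 7 (log2 FC = -1.86 ± 0.12 (SE), FDR = 5.05e-08). The mitochondrial acyl-CoA thioesterase *Acot2* (log2 FC = -1.88 ± 0.18 (SE), FDR = 8.87e-07) and its cytosolic relative *Acot1* (log2 FC = -3.27 ± 0.34 (SE), FDR = 1.96e-06) fell as well, and *Acot1* measured 61.2, 44.2, 47.3 and 31.5 CPM in the sham hearts, 9.02, 12.2, 10.6 and 27.999 CPM on day 1, and 4.96, 3.48, 6.12 and 4.49 CPM on day 7. The groups of *Acot1* were apart, with Day 1 AMI 4 close to Sham 4. *Acot1* and *Acot2* share 15.0% and 21.2% of their 75-base stretches with other genes, mostly with each other, and reads from those stretches cannot be assigned to 1 of them. *Acss1*, the mitochondrial acetyl-CoA synthetase, fell between day 1 and day 7 (log2 FC = -1.03 ± 0.14 (SE), FDR = 4.72e-05).

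Regulators of pyruvate dehydrogenase split. Of 7 genes, 6 fell and 1 rose on day 7, with a median of -0.69. It turned to 0.20 on the marker scale, where the median of all genes was 0.92. The kinase *Pdk4*, which switches the complex off when fatty acids are plentiful, measured 490.0, 302, 1508 and 1109.9 CPM in the sham hearts, 351, 308, 141 and 223 CPM on day 1, and 227, 150.1, 365 and 204 CPM on day 7. Sham hearts spread widely, and Sham 2 lay among the AMI hearts. It fell on day 1 (log2 FC = -1.74 ± 0.44 (SE), FDR = 0.00592) and on day 7 (log2 FC = -1.85 ± 0.44 (SE), FDR = 0.00224). *Pdk3*, a scarce kinase here, rose from 1.98, 2.18, 2.23 and 2.06 CPM in the sham hearts to 5.47, 5.22, 2.72 and 3.69 on day 1 and 5.92, 7.19, 5.46 and 6.02 on day 7 (log2 FC = 1.54 ± 0.21 (SE), FDR = 2.26e-05). Every AMI heart was above every sham heart for *Pdk3*.

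Other genes of fatty acid uptake and activation went both ways, with 5 of 13 lower and 4 higher on day 7, and their median of -0.08 turned to 0.32 with library sizes alone, to 0.47 on log2(TPM + 1) and to 0.81 on the marker scale. The median of all genes on day 7 was 0.43, 0.44 and 0.92 in these settings. *Cpt1c*, the brain form of carnitine palmitoyltransferase, rose from 3.62 ± 0.931 CPM to 12.01 ± 1.72 on day 7 (log2 FC = 1.73 ± 0.18 (SE), FDR = 2e-06). Of 10 tested peroxisomal beta-oxidation genes, 6 fell and 0 rose on day 7 with edgeR, where 6 had an unadjusted p below 0.05, and their median of -0.46 turned to 0.07 on log2(TPM + 1) and to 0.45 on the marker scale. The bifunctional enzyme *Ehhadh* fell on day 1 (log2 FC = -1.50 ± 0.20 (SE), FDR = 0.000102). Of 19 other TCA, anaplerotic and cofactor genes, 14 fell and 3 rose on day 7, with a median of -0.67 that turned to 0.22 on the marker scale.

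A pair of neighboring pathways set the members in context. Nuclear genes of the respiratory chain moved much as the members did by day 7, where 75 of 77 fell and 1 rose with a median of -1.07, and on the marker scale 28 fell and 6 rose with a median of -0.18. On day 1, 58 of 77 fell and 1 rose, at a median of -0.41 that turned to 0.16 on the marker scale. Glycolysis was mixed on day 1, with 9 of 19 genes lower and 6 higher, and on day 7, with 13 lower and 2 higher. The glycolysis median was -0.10 on day 1 and -0.40 on day 7, and it turned to 0.16 and 0.00 with library sizes alone, to 0.20 and 0.10 on log2(TPM + 1) and to 0.45 and 0.49 on the marker scale. In these settings the median of all genes was 0.26 and 0.43, 0.23 and 0.44, and 0.56 and 0.92. The glucose transporter gene *Slc2a1*, singled out after its values were seen, rose on day 1 from 18.4, 27.4, 18.6 and 15.7 CPM in the sham hearts to 72.3, 89.7, 43.97 and 35.03 (log2 FC = 1.59 ± 0.26 (SE), FDR = 0.000321) and stood at 25.3, 19.01, 18.6 and 20.5 on day 7. The differences between these lists and the members were not tested.

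Promoter sequence was searched for sites of regulators known for these pathways. RefSeq's table of 300-base windows, from 250 bases before to 50 bases after each start site (build GRCm38.p6), held 40 of the 47 members and 27025 genes in all. Windows were not matched for *Cpt1b*, *Crat*, *Acat1*, *Sdhc*, *Idh3a*, *Decr1* and *Acaa2*. In all, 7 motifs were searched on both strands. The letters TCAAGGTCA, the type of site known for estrogen-related receptors, were in the window of 1 of 40 members (*Sdhd*) and of 0.466% of all genes. CGCATGCG, the core of the nuclear respiratory factor 1 site, was in 3 of 40 (*Acadm*, *Etfdh* and *Ogdh*) and in 2.07% of all genes. CCGGAAG, an ETS type site, was in 8 of 40 against 9.93% of all genes, and AAGATGGCG, a YY1 type site, in 2 of 40 against 1.64%. A longer form of the nuclear respiratory factor 1 site was in 1 of 40 against 1.07%, and a MEF2 type site in 0 of 40 against 0.181%. A pair of AGGTCA copies 1 base apart, the layout bound by PPAR receptors, was in 0 of 40 against 0.0481%. A match is only a stretch of letters, the counts are small, and they were not tested. The windows of *Acadm*, *Etfdh* and *Sdhd* follow in lower case, 5′ to 3′, and capitals mark CGCATGCG in the first pair and, in *Sdhd*, TGACCTTGA, which is TCAAGGTCA read on the other strand.
Acadm promoter, chr3:153944594-153944893, minus strand: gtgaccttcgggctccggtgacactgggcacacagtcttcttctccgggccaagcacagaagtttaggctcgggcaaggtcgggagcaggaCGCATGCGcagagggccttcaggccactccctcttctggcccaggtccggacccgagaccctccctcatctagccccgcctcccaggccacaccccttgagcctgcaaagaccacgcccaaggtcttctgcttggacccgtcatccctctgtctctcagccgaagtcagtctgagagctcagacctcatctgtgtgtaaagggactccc
Etfdh promoter, chr3:79628718-79629017, minus strand: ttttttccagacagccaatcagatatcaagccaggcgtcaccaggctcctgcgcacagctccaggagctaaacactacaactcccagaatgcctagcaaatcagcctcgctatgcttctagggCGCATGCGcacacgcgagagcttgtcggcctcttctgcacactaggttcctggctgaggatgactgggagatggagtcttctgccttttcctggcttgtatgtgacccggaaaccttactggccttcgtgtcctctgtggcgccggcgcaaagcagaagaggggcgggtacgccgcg
Sdhd promoter, chr9:50603800-50604099, minus strand: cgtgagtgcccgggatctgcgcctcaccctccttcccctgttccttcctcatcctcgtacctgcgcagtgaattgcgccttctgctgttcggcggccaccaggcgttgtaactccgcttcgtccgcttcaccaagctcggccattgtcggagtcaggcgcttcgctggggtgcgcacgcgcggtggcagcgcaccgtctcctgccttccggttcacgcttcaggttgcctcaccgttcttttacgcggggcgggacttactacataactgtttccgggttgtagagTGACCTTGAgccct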

How the data were processed

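RNA of 12 mouse hearts was sequenced by the authors in 150-bp paired reads, 4 libraries each for sham, day 1 and day 7. Reads were trimmed with Cutadapt and aligned with STAR 2.4.0j to mouse genome build mm10. The deposited counts are raw reads per gene, and the tool and strand setting used to count them are not stated. The deposited TPM were made by the authors with RSEM and are given to 2 decimals. Base calling used CASAVA 1.8.

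Counts were analyzed in R 4.3.3 with edgeR 4.0.16 (TMM factors, filterByExpr by group, 1 quasi-likelihood fit of all 3 groups, FDR by Benjamini-Hochberg over 15306 genes). Alternatives were DESeq2 1.42.0, limma 3.58.1 on log2(TPM + 1) and log2(TPM + 0.1) with and without a filter, RLE factors, library sizes alone, no filter, no mitochondrial genome, only the groups compared, replicate number as a block, and leaving out each heart. Marker scaling used 12 cardiomyocyte genes, also without *Myh6* and *Atp2a2*. Ratios of gene pairs used log2 CPM with a prior count of 2, or of 0.5, and the exact permutation test of 4 hearts against 4. Tables and figures used Python 3.11.15 and matplotlib 3.10.9. Positions, exons and shared 75-base stretches came from GENCODE M21, and promoters from RefSeq. The methods were tested on simulated data with 200 of 15306 genes changed on day 7. There edgeR recovered 196 of them against sham, with 18 false calls. With so few genes changed, the simulation cannot test the choice of library scaling.

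Depth was 23204551 to 32166517 counts per library, so a floor of 3 counts stands at 0.0933 to 0.129 CPM. TMM factors were 0.781 to 0.917 in sham, 1.01 to 1.06 on day 1 and 1.10 to 1.17 on day 7.

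The members and lists were chosen with earlier results of these data known. Values in each heart are given for the member with the largest and the smallest day 7 change in each role, and for the 3 members with the largest change on day 1 and between day 1 and day 7. They are also given for both genes of each pair, except for *Idh1* on day 1. Other genes are named as up to 3 DEGs per direction and comparison. Genes named outside this rule were chosen after their values were seen.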

Additional observations from a re-analysis of the deposited data

Results flagged for a closer look

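In groups of 4 hearts, 180 groups of values from 60 genes were searched for a heart far from the other 3, and 10 groups (5.56%) held one. Chance gives about 1 in 20 groups.

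Day 1 AMI 4 had 104.9 CPM of *Mlycd*, where the other day 1 hearts had 71.26 to 75.7, and 395.1 CPM of *Decr1*, where they had 277.1 to 289.6. Day 1 AMI 3 had 419.8 CPM of *Idh3g*, against 390.2 to 391.2 in the others. Among sham hearts, Sham 2 had 341.8 CPM of *Decr1* (others 454.1 to 478.1), Sham 1 had 515.7 CPM of *Etfb* (others 628.2 to 648.6), and Sham 3 had 563.4 CPM of *Idh3g* (others 626.6 to 629.1).

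On day 7, Day 7 AMI 3 was above the others for *Mpc2* (153.2 CPM, others 132 to 135.3), *Suclg2* (111.3 CPM, others 91.3 to 94.09) and *Acss1* (190.4 CPM, others 137.7 to 144.8). Day 7 AMI 1 had 3.76 CPM of *Idh1*, where the other day 7 hearts had 42.96 to 46.4. The causes were not tested.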

How the results depend on the processing

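Members lower on day 1 numbered 21 with library sizes alone, 15 on log2(TPM + 1), 15 on log2(TPM + 0.1) and 11 on log2(TPM + 1) without a filter, against 47. Of all genes, 1061, 737, 762 and 607 were lower in these settings, against 3043. Without a filter 26574 genes were tested in place of 15306. Day 1 DEGs were 0 in each of these 4 settings, beside 217, 63, 145 and 64 of all genes. Day 7 DEGs were 7 with library sizes alone and 3 on each TPM setting, against 33. Of all genes, 318, 111, 189 and 112 were DEGs in this direction on day 7, against 900. Between day 1 and day 7, members lower numbered 22, 22 and 19 on the TPM settings, and DEGs 1 with library sizes alone and 0 on each TPM setting. There 1302, 1268 and 1159 of all genes were lower on the TPM settings, against 3496. These settings also move the median of all genes. Counts with RLE factors, DESeq2, no filter, no mitochondrial genome, only the groups compared and the replicate block stayed within 1.5 times, except that the replicate block gave 1 member higher on the marker scale on day 7. No member was higher on the marker scale on day 1 without *Myh6* and *Atp2a2* (0, against 1). Among the members named by the rule, *Pdhx* was reversed on the TPM settings, in the order log2(TPM + 1), log2(TPM + 0.1) and no filter: the log2 FC of Pdhx, day 7 AMI against sham, was 0.0738, 0.0746 and 0.0738, and the log2 FC of Pdhx, day 7 AMI against day 1 AMI, was 0.1215, 0.1229 and 0.1215. Outside that rule, *Mpc1* (0.03), *Dlat* (0.01) and *Ogdh* (0.00334) were above 0 on log2(TPM + 1) for day 7 against day 1. The causes were not tested.

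With each heart left out in turn, members lower ranged from 45 to 47 on day 1, 47 to 47 on day 7 and 41 to 45 between them, members higher from 0 to 0 in each, and the medians from -0.61 to -0.51, -1.18 to -1.09 and -0.60 to -0.48. DEGs ranged from 0 to 1 on day 1 (0 without Sham 3 or Day 1 AMI 2), 30 to 37 on day 7, and 1 to 5 between them (4 without Day 1 AMI 1 or Day 1 AMI 2, 1 without Day 1 AMI 4 or Day 7 AMI 2, 5 without Day 7 AMI 3). On the marker scale members lower ranged from 2 to 5 (5 without Day 1 AMI 4), 18 to 24 and 15 to 21, and members higher from 0 to 6 on day 1 (6 without Sham 2; 0 without Sham 1, Sham 3, Day 1 AMI 2, Day 1 AMI 3 or Day 1 AMI 4), 0 to 1 on day 7 (1 without Day 7 AMI 1 or Day 7 AMI 3) and 0 to 0 between them.

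Calls of single genes also moved. *Cd36* between day 1 and day 7 no longer passed without Day 1 AMI 2 (-0.31), Day 1 AMI 4 (-0.26), Day 7 AMI 1 (-0.30), Day 7 AMI 2 (-0.35) or Day 7 AMI 4 (-0.32), nor with the replicate block (-0.33). *Acadvl* on day 1 no longer passed without Sham 3 (-0.32), Sham 4 (-0.31), Day 1 AMI 1 (-0.29), Day 1 AMI 2 (-0.30) or Day 1 AMI 3 (-0.32), *Mpc2* on day 1 without Day 1 AMI 2 (-0.29), and *Cpt2* between day 1 and day 7 without Day 1 AMI 4 (-0.33) or Day 7 AMI 1 (-0.39). *Acsl1* between day 1 and day 7 passed without Sham 2 (-0.29), Day 1 AMI 2 (-0.35) or Day 7 AMI 3 (-0.34) and with DESeq2 (-0.30). *Idh1* passed without Day 7 AMI 1 (-0.61 on day 1, -0.47 on day 7), and its ratio to *Idh2* then stood 0.85 above sham on day 7, against -0.04 with all hearts.

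With each heart left out, the log2 ratio difference ranged from 2.21 to 2.37 for Fabp5 against Fabp3, day 7 AMI against sham, from 1.197 to 1.47 for Acsl4 against Acsl1, day 1 AMI against sham, and from 0.76 to 0.99 for Cpt1a against Cpt1b, day 7 AMI against sham. Hearts with the same replicate number correlated at -0.49 to 0.31, so the number was not used for pairing. With 4 hearts per group and whole tissue, cell number and RNA per cell are not separated, RNA does not show enzyme activity, and sham hearts serve both AMI groups. Depth limits none of the members, since all passed the filter.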
